A study of Homo sapiens with 3 samples.

Results

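The glycosyltransferases described here are enzymes of the secretory pathway that build the sugar chains of proteins and lipids, each moving a given sugar onto a given acceptor. They are the fucosyltransferases, sialyltransferases, polypeptide GalNAc transferases, branching enzymes of N-glycans and the enzymes that extend chains with N-acetylglucosamine or galactose, taken by gene symbol alone (FUT, ST3GAL, ST6GAL, ST8SIA, GALNT, MGAT, B3GNT, B4GALT and B3GALT). Of 16149 genes listed in any library, 73 met this rule. Sialylated and fucosylated chains on the cell surface are bound by selectins, and altered branching, fucosylation and sialylation of glycoproteins are well known in hepatocellular carcinoma (HCC).

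Messenger RNA of 3 cultures of the human HCC line HCCLM3 was sequenced, a parent and its subclones 1 and 2, with 1 library each. By the labels the parent metastasized poorly, subclone 1 had a high ability directed at lung, and subclone 2 was directed at lung and celiac lymph node. The methods name as parent a derivative carrying red fluorescent protein and describe it as highly metastatic, which differs from its label. Subclones there came from lines recovered from lung or lymph node metastases of parent xenografts in nude mice. They were grown from single cells, so that each is 1 clone, and no agent was given to any culture. With 1 library for each line no test between lines was possible. Effects of tropism, clone, passage through mice and library cannot be told apart.

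Values are RPKM, which are reads scaled by the length of a gene and the total of its library. Whole reads were recovered from them, with totals between 4488825 and 4725150, and gave 95% intervals for levels (exact Poisson) and for ratios (exact Clopper-Pearson). Reads without molecular identifiers are not independent molecules, so these intervals cover counting error only. Among 4 epithelial markers, keratin was high throughout, with KRT8 at 1614 (parent), 1641 (subclone 1) and 1742 RPKM (subclone 2), whereas EPCAM had at most 3 reads. E-cadherin differed between the lines: CDH1 stood at 2.08 RPKM from 45 reads (parent), 8.97 RPKM from 199 reads (subclone 1) and 12.3 RPKM from 280 reads (subclone 2), with ratios to the parent of 4.31 (3.10 to 6.09) and 5.91 (4.30 to 8.29). Albumin, which defines hepatocytes, was low in the parent: ALB stood at 2.46 (parent), 49.5 (subclone 1) and 68.8 RPKM (subclone 2). The 8 hepatocyte markers summed to 12.9 (parent), 101 (subclone 1) and 89.7 RPKM (subclone 2), and TTR had at most 1 read. APOA1 and SERPINA1 had at most 4 reads. TF stood at 5.71 (parent), 30.3 (subclone 1) and 5.88 RPKM (subclone 2). Its ratio to the parent was 5.30 (3.70 to 7.79) in subclone 1 but 1.03 (0.637 to 1.67) in subclone 2. FGB stood at 1.66 (parent), 14.5 (subclone 1) and 5.6 RPKM (subclone 2). APOB and ALB instead rose from subclone 1 to subclone 2, with ratios of 3.39 (2.63 to 4.40) and 1.39 (1.24 to 1.56). Markers of other cells moved as well. The 6 fibroblast markers summed to 15.7 (parent), 31.1 (subclone 1) and 24.3 RPKM (subclone 2), mainly LUM, while PDGFRB was listed nowhere and COL1A2 had at most 1 read. DCN rose with LUM, with ratios to the parent of 5.72 (2.68 to 14.0) in subclone 1 and 3.56 (1.60 to 8.99) in subclone 2. Within this list COL3A1 ran the other way. It stood at 4.42 RPKM from 109 reads (parent), 2.21 RPKM from 56 reads (subclone 1) and 0.463 RPKM from 12 reads (subclone 2). The interval of its ratio to the parent ran from 0.356 to 0.697 in subclone 1. In subclone 2 the ratio was 0.105 (0.0524 to 0.190). COL1A1, with 9, 11 and 1 reads in the parent and subclones 1 and 2, was also lower in subclone 2. Its ratio there to the parent was 0.106 (0.00241 to 0.762). The 4 endothelial markers summed to 4.74 (parent), 11.8 (subclone 1) and 7.56 RPKM (subclone 2), with at most 1 read of CDH5 and 2 of VWF. This sum was mainly PECAM1, with 3.33 (parent), 9.81 (subclone 1) and 4.46 RPKM (subclone 2). KDR was instead highest in subclone 2, with 1.36 (parent), 1.93 (subclone 1) and 3.08 RPKM (subclone 2). The 4 leukocyte markers summed to 75.5 (parent), 112 (subclone 1) and 99.7 RPKM (subclone 2), nearly all CD68, with at most 1 read of PTPRC and none of CD3E. Their part in the differences described next was not tested.

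Of the 73 members, 62 were listed in the parent, 66 in subclone 1, 63 in subclone 2 and 54 in every library. A mean of at least 1 RPKM over the libraries was reached by 42, with means between 1.30 and 88.2 RPKM. Of the other 31, 27 had a mean under 0.5 RPKM and 28 had no more than 10 reads in any library. The 19 members missing from at least 1 library never exceeded 6 reads elsewhere, so that absence and low expression could not be separated at this depth. Whole reads were found for 72 members, all but B3GALT1. The highest means belonged to MGAT4B (88.2 RPKM), ST3GAL5 (69.2 RPKM), GALNT1 (49.2 RPKM), ST3GAL1, B4GALT1 and B4GALT5 (43.6 RPKM), enzymes of branching, ganglioside synthesis, O-glycan initiation, core 1 sialylation and galactosylation.

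**Figure D1:**
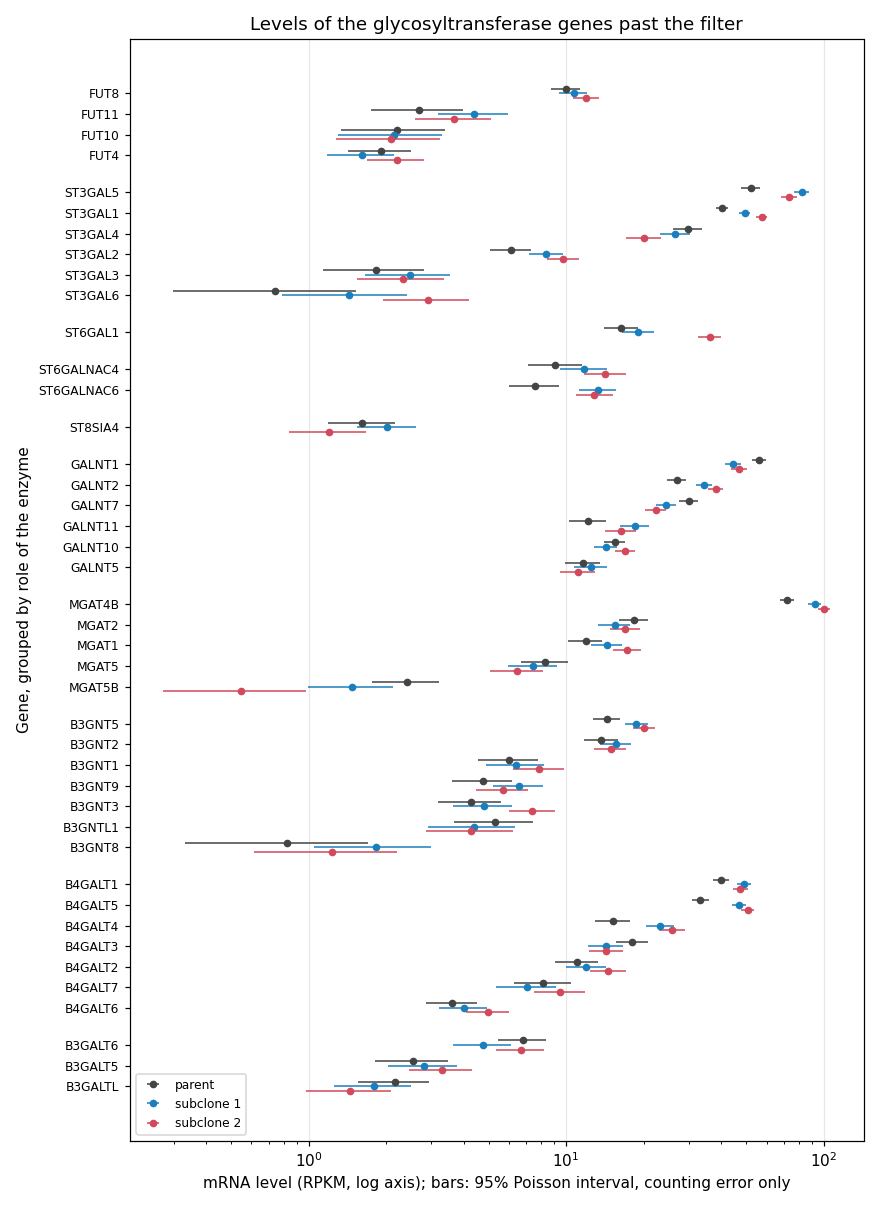
RPKM on a log axis of the 42 members with a mean of at least 1 RPKM, grouped by role, with a point for each library and bars for 95% Poisson intervals. Most points of a gene lie close together, whereas ST6GAL1 in subclone 2 (36.0 RPKM) lies above and MGAT5B in subclone 2 (0.547 RPKM) below the other libraries.

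Few members reached a 2-fold difference, which was read on the scale of log2(RPKM + 0.1) and understates the change of low genes. Over the parent, subclone 1 had 1 of 42 members past 2-fold upward and 0 downward, beside 4.9% and 1.82% of all 11370 genes past the filter. Subclone 2 had 2 upward and 1 downward, beside 5.33% and 2.16%. For subclone 2 over subclone 1 the numbers were 0 upward and 1 downward, beside 1.42% and 1.39%. With 42 members, each of these shares is near the background. The comparisons share libraries and are not independent.

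Smaller differences leaned upward. The median log2 ratio of the 42 members was 0.18 for subclone 1 and 0.34 for subclone 2 over the parent, while all genes had 0.0043 and 0.037. Above 0 were 28 and 29 members (66.7% and 69.0%), beside 50.4% and 53.5% of all genes. A counting interval wholly above 1 was found for 11 members in subclone 1 (all genes: 20%) and 19 in subclone 2 (all genes: 22.9%). Wholly below 1 were 5 and 5 members (all genes: 19% and 17.9%). Such an interval is reached more easily by genes with many reads, for which members and other genes were not matched. Between the subclones the median was 0.10, with 0.034 for all genes, and 8 intervals lay above 1 and 4 below (all genes: 11.6% and 8.5%).

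**Figure D2:**
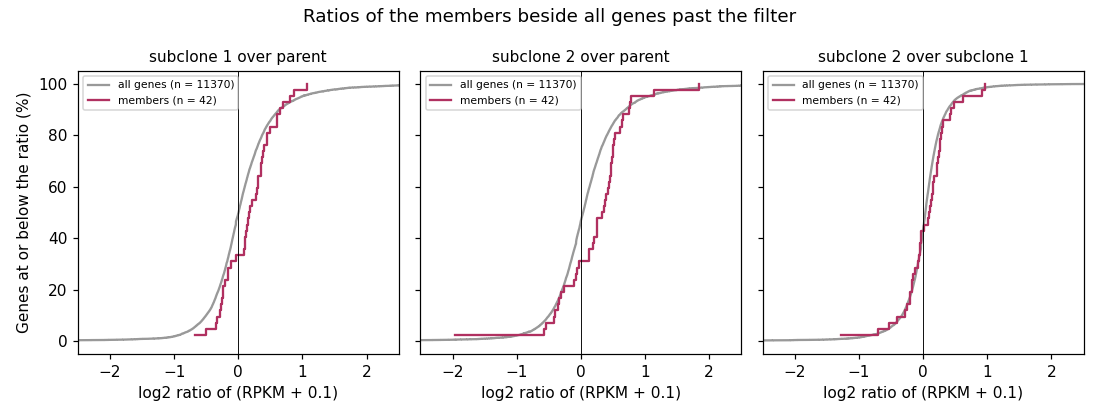
Cumulative share of genes (%) against the log2 ratio of (RPKM + 0.1), for the 42 members and for all 11370 genes past the filter, with a panel for each comparison. In both panels against the parent the middle of the member curve lies to the right of all genes (medians 0.18 and 0.34). In the panel between the subclones the medians are closer (0.10 for members and 0.034 for all genes). The members spread more widely there, with a median absolute log2 ratio of 0.21 beside 0.16.

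The stretches upstream of ST6GAL1, ST3GAL6 and MGAT5B are shown because these members passed the filter and 2-fold with a counting interval clear of 1. GALNTL4, described below, was also sought but has no entry in the RefSeq promoter set. Each line gives the 250 bases before the gene start in the RefSeq table (GRCh38.p14), 5′ to 3′ on the plus strand. Capitals mark letters of a GC box (GGGCGG, or CCGCCC on the other strand) or a CCAAT box (CCAAT, or ATTGG on the other strand). ST6GAL1 is chr3:186930276-186930525. ST3GAL6 is chr3:98732012-98732261. MGAT5B is chr17:76872397-76872646.
ST6GAL1: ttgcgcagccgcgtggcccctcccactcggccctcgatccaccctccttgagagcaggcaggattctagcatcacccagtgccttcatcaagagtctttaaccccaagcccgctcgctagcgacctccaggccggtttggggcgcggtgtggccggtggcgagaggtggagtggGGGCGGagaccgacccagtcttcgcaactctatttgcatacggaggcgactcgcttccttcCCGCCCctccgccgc
ST3GAL6: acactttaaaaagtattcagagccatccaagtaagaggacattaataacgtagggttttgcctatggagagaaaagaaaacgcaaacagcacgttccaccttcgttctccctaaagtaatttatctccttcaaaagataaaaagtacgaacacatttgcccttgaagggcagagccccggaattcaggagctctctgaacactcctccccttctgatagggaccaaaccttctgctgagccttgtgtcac
MGAT5B: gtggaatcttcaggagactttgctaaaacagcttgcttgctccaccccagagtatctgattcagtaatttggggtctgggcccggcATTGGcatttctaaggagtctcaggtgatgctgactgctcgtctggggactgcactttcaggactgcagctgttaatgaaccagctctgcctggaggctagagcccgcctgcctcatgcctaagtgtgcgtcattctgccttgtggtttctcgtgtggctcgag
The ST6GAL1 window had 65.6% G and C and 2 GC boxes, a motif that 42.6% of 35116 such windows hold. The ST3GAL6 window had 44.0% G and C and no match to these motifs. The MGAT5B window had 53.6% G and C and 1 CCAAT box, present in 32.0% of windows. A TATA box (TATAAA, or TTTATA on the other strand) was in none of them and in 10.7% of all windows. No measurement here shows which start site these cells use.

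The enzyme that caps N-glycans with α-2,6 sialic acid was higher in subclone 2. ST6GAL1 stood at 16.4 RPKM from 169 reads (parent), 19.0 RPKM from 202 reads (subclone 1) and 36.0 RPKM from 392 reads (subclone 2). The Poisson intervals were 14.0 to 19.0, 16.5 to 21.8 and 32.6 to 39.8 RPKM, with subclone 2 apart from the others. The ratio of subclone 2 was 2.20 (1.84 to 2.65) to the parent and 1.89 (1.59 to 2.25) to subclone 1, whereas that of subclone 1 to the parent was 1.16 (0.944 to 1.44). ST6GAL2, with the same linkage, had 4, 5 and 3 reads in the parent and subclones 1 and 2.

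All 6 α-2,3 sialyltransferases passed the filter. Above the parent were 5 of them in subclone 1 and 5 in subclone 2 (all genes: 50.4% and 53.5%). ST3GAL6 acts, like ST3GAL3 and ST3GAL4, on the chains from which sialyl Lewis x is made. ST3GAL6 stood at 0.740 RPKM from 7 reads (parent), 1.44 RPKM from 14 reads (subclone 1) and 2.91 RPKM from 29 reads (subclone 2). Subclone 2 was the highest, with a ratio of 3.94 (1.69 to 10.6) to the parent and 2.02 (1.03 to 4.14) to subclone 1. At these few reads the ratio of subclone 1 to the parent, 1.95 (0.736 to 5.70), was not separable from 1. ST3GAL4 ran the other way with 29.8 RPKM from 236 reads (parent), 26.5 RPKM from 216 reads (subclone 1) and 20.0 RPKM from 167 reads (subclone 2). Its ratio in subclone 2 was 0.672 (0.548 to 0.823) to the parent and 0.754 (0.613 to 0.927) to subclone 1. ST3GAL3 stood at 1.84 (parent), 2.47 (subclone 1) and 2.32 RPKM (subclone 2), and all its intervals included 1.

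ST3GAL5, which turns lactosylceramide into the ganglioside GM3, was the most abundant sialyltransferase, with 52.0 RPKM from 560 reads (parent), 82.1 RPKM from 907 reads (subclone 1) and 73.4 RPKM from 831 reads (subclone 2). Both subclones lay above the parent, with ratios of 1.58 (1.42 to 1.76) and 1.41 (1.26 to 1.57), and subclone 2 lay below subclone 1 at 0.894 (0.813 to 0.983). ST3GAL1, which caps core 1 O-glycans, stood at 40.2 (parent), 49.4 (subclone 1) and 57.3 RPKM (subclone 2). Its ratios to the parent were 1.23 (1.14 to 1.32) in subclone 1 and 1.42 (1.33 to 1.53) in subclone 2.

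Of 5 enzymes that sialylate GalNAc, 2 passed the filter, both higher in the subclones. Above the parent were 50.4% (subclone 1) and 53.5% (subclone 2) of all genes. ST6GALNAC6, an enzyme of gangliosides, stood at 7.56 (parent), 13.3 (subclone 1) and 12.9 RPKM (subclone 2), with ratios to the parent of 1.76 (1.33 to 2.33) and 1.70 (1.29 to 2.26). ST6GALNAC4, which adds a sialic acid to sialylated core 1, stood at 9.08 (parent), 11.8 (subclone 1) and 14.2 RPKM (subclone 2), and its interval cleared 1 in subclone 2 at 1.56 (1.15 to 2.13) but not in subclone 1 at 1.29 (0.939 to 1.79). ST6GALNAC1, which makes sialyl-Tn, had 7, 2 and 9 reads and no interval clear of 1.
The α-2,8 enzymes were sparse. ST8SIA4, a polysialic acid synthase, stood at 1.62 RPKM from 46 reads (parent), 2.02 RPKM from 59 reads (subclone 1) and 1.20 RPKM from 36 reads (subclone 2). The ratio of subclone 2 to subclone 1 was 0.595 (0.382 to 0.916), and both ratios to the parent had intervals that included 1. ST8SIA1, the GD3 synthase, had 3, 5 and 1 reads.

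**Figure D3:**
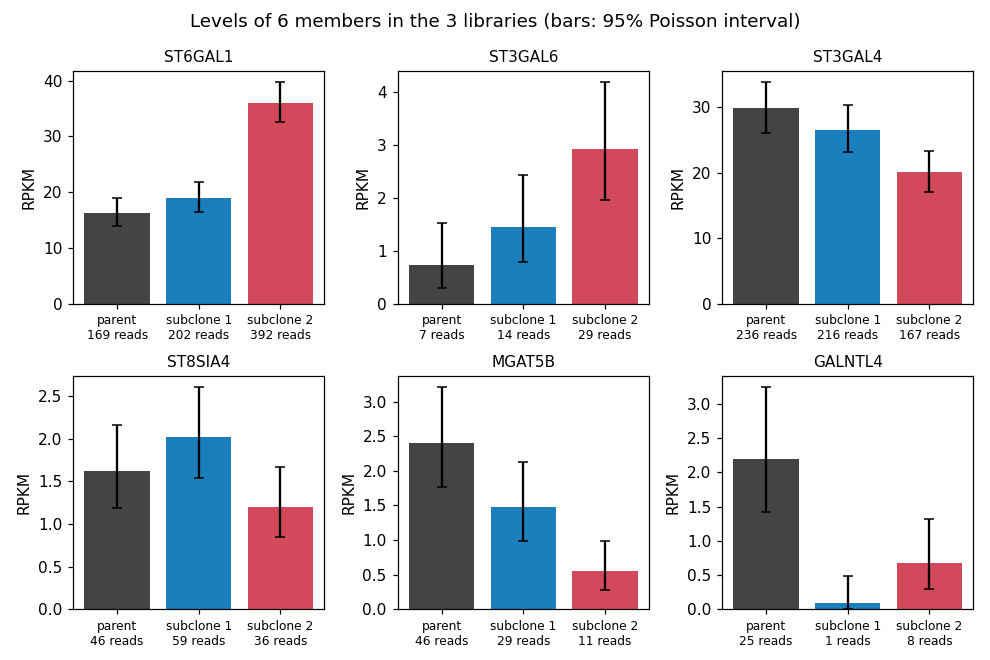
RPKM of ST6GAL1, ST3GAL6, ST3GAL4, ST8SIA4, MGAT5B and GALNTL4 in the libraries, with error bars for 95% Poisson intervals and the recovered reads under each bar. In subclone 2, ST6GAL1 (36.0 RPKM) and ST3GAL6 (2.91 RPKM) are highest, and ST3GAL4, ST8SIA4 and MGAT5B are lowest, while GALNTL4 has 1 read in subclone 1.

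Branching enzymes set how many antennae an N-glycan carries, and 5 of 8 passed the filter. MGAT5B, a relative of the β-1,6 branching enzyme MGAT5 known mainly from brain, stood at 2.41 RPKM from 46 reads (parent), 1.48 RPKM from 29 reads (subclone 1) and 0.547 RPKM from 11 reads (subclone 2). The Poisson intervals were 1.76 to 3.21, 0.991 to 2.12 and 0.273 to 0.980 RPKM, with subclone 2 lowest and apart from the others. Its ratio was 0.227 (0.106 to 0.445) to the parent and 0.370 (0.167 to 0.763) to subclone 1, and that of subclone 1 to the parent was 0.614 (0.372 to 0.998). MGAT5 itself stood at 8.28 (parent), 7.44 (subclone 1) and 6.47 RPKM (subclone 2), with all intervals including 1.
MGAT4B, which adds a β-1,4 branch, stood at 72.0 RPKM from 945 reads (parent), 92.2 RPKM from 1242 reads (subclone 1) and 100.5 RPKM from 1387 reads (subclone 2). Its ratios to the parent were 1.28 (1.18 to 1.39) and 1.39 (1.28 to 1.52). MGAT2, which opens the second antenna, stood at 18.3 (parent), 15.4 (subclone 1) and 17.0 RPKM (subclone 2), with all intervals including 1. MGAT3, which adds the bisecting residue, had 1 read in subclone 1 and 0 elsewhere. A limit of 3 reads is 0.262 RPKM in the parent and 0.249 RPKM in subclone 2. The Poisson intervals there reach 0.322 and 0.306 RPKM.

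Polypeptide GalNAc transferases start O-glycans on serine and threonine. With 17 members they were the largest class, and 6 passed the filter. Their sums were 155, 149 and 153 RPKM in the parent and subclones 1 and 2, while members differed in both directions. GALNT1 stood at 56.2 (parent), 44.4 (subclone 1) and 46.9 RPKM (subclone 2), with ratios to the parent of 0.790 (0.719 to 0.869) and 0.835 (0.760 to 0.916). GALNT2 stood at 26.9 (parent), 34.3 (subclone 1) and 38.0 RPKM (subclone 2), with 1.27 (1.14 to 1.43) and 1.41 (1.27 to 1.58). GALNT3, GALNT6 and GALNT14 had at most 3 reads in any library.
GALNTL4, now named GALNT18, lay just under the filter with a mean of 0.985 RPKM and was picked after its values were seen. It stood at 2.20 RPKM from 25 reads (parent), 0.0857 RPKM from 1 read (subclone 1) and 0.669 RPKM from 8 reads (subclone 2). The Poisson intervals were 1.42 to 3.25, 0.00217 to 0.478 and 0.289 to 1.32 RPKM, with the parent highest and apart from both subclones. The ratio to the parent was 0.0390 (0.000949 to 0.238) in subclone 1 and 0.304 (0.119 to 0.695) in subclone 2. On the log2 scale with the pseudocount, subclone 1 over the parent was -3.63.

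Of 10 fucosyltransferases 4 passed the filter. FUT8, which adds the core fucose of N-glycans, was the most abundant with 9.98 RPKM from 232 reads (parent), 10.7 RPKM from 255 reads (subclone 1) and 12.0 RPKM from 293 reads (subclone 2). Its ratio was 1.20 (1.01 to 1.43) in subclone 2 and 1.07 (0.892 to 1.28) in subclone 1 over the parent. FUT4, an α-1,3 enzyme of Lewis x, stood at 1.91 (parent), 1.61 (subclone 1) and 2.20 RPKM (subclone 2), with all intervals including 1. FUT11, now named POFUT4, stood at 2.69 (parent), 4.40 (subclone 1) and 3.68 RPKM (subclone 2), and 1.64 (0.974 to 2.80) over the parent in subclone 1 was not separable from 1.
The fucosyltransferases that complete sialyl Lewis structures were at the edge of detection. FUT3 had 0, 0 and 1 reads in the parent and subclones 1 and 2, FUT6 had 4, 1 and 0 reads and FUT7 had 0, 1 and 0 reads. For FUT7 in the parent, 0 reads allow up to 0.275 RPKM at a limit of 3 reads and 0.338 RPKM by the Poisson interval. FUT3 and FUT6 are close copies, so their values are uncertain.

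Chain-extending enzymes fall into 3 classes. Of 7 β-1,4 galactosyltransferases, all past the filter, 5 were above the parent in subclone 1 and 6 in subclone 2, where 50.4% and 53.5% of all genes were. B4GALT5, a lactosylceramide synthase and so a step before ST3GAL5, stood at 33.2 RPKM from 707 reads (parent), 46.9 RPKM from 1025 reads (subclone 1) and 50.7 RPKM from 1136 reads (subclone 2). Its ratios to the parent were 1.41 (1.28 to 1.56) and 1.53 (1.39 to 1.68), and the subclones were not separable (1.08, interval 0.993 to 1.18). B4GALT1, the main galactosyltransferase of N-glycans, stood at 39.8 (parent), 49.2 (subclone 1) and 47.5 RPKM (subclone 2), with 1.24 (1.12 to 1.36) and 1.19 (1.08 to 1.31).
Of 10 members with a B3GNT symbol, 7 passed the filter. Above the parent were 6 of these in subclone 1 and 6 in subclone 2 (all genes: 50.4% and 53.5%). B3GNT5, which begins lacto-series glycolipids, stood at 14.3 (parent), 18.7 (subclone 1) and 20.0 RPKM (subclone 2), with ratios to the parent of 1.31 (1.11 to 1.54) and 1.40 (1.19 to 1.64). B3GNT2, the main enzyme of poly-N-acetyllactosamine, stood at 13.7 (parent), 15.6 (subclone 1) and 14.9 RPKM (subclone 2), with all intervals including 1. B3GNT8, which acts with B3GNT2 on branched N-glycans, was the 1 member past 2-fold in subclone 1, with 0.823 RPKM from 7 reads (parent), 1.83 RPKM from 16 reads (subclone 1) and 1.23 RPKM from 11 reads (subclone 2). Its ratio of 2.23 (0.866 to 6.40) was not separable from 1 at these reads.
Of 6 members with a B3GALT symbol, 3 passed the filter. Above the parent was 1 of these in subclone 1 and 1 in subclone 2 (all genes: 50.4% and 53.5%). B3GALT6, which builds the linker of proteoglycans, stood at 6.78 (parent), 4.74 (subclone 1) and 6.67 RPKM (subclone 2), with 0.699 (0.495 to 0.982) in subclone 1 over the parent and 0.984 (0.722 to 1.34) in subclone 2. B3GALT5, an enzyme of type 1 chains, stood at 2.55 (parent), 2.80 (subclone 1) and 3.29 RPKM (subclone 2), with all intervals including 1. B3GALTL stood at 2.16 (parent), 1.80 (subclone 1) and 1.45 RPKM (subclone 2), with 0.831 and 0.672 over the parent and all intervals including 1. Some symbols are older names: B3GALTL is now B3GLCT, which transfers glucose, B3GNT1 is now B4GAT1 and FUT10 is now POFUT3.

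**Figure D4:**
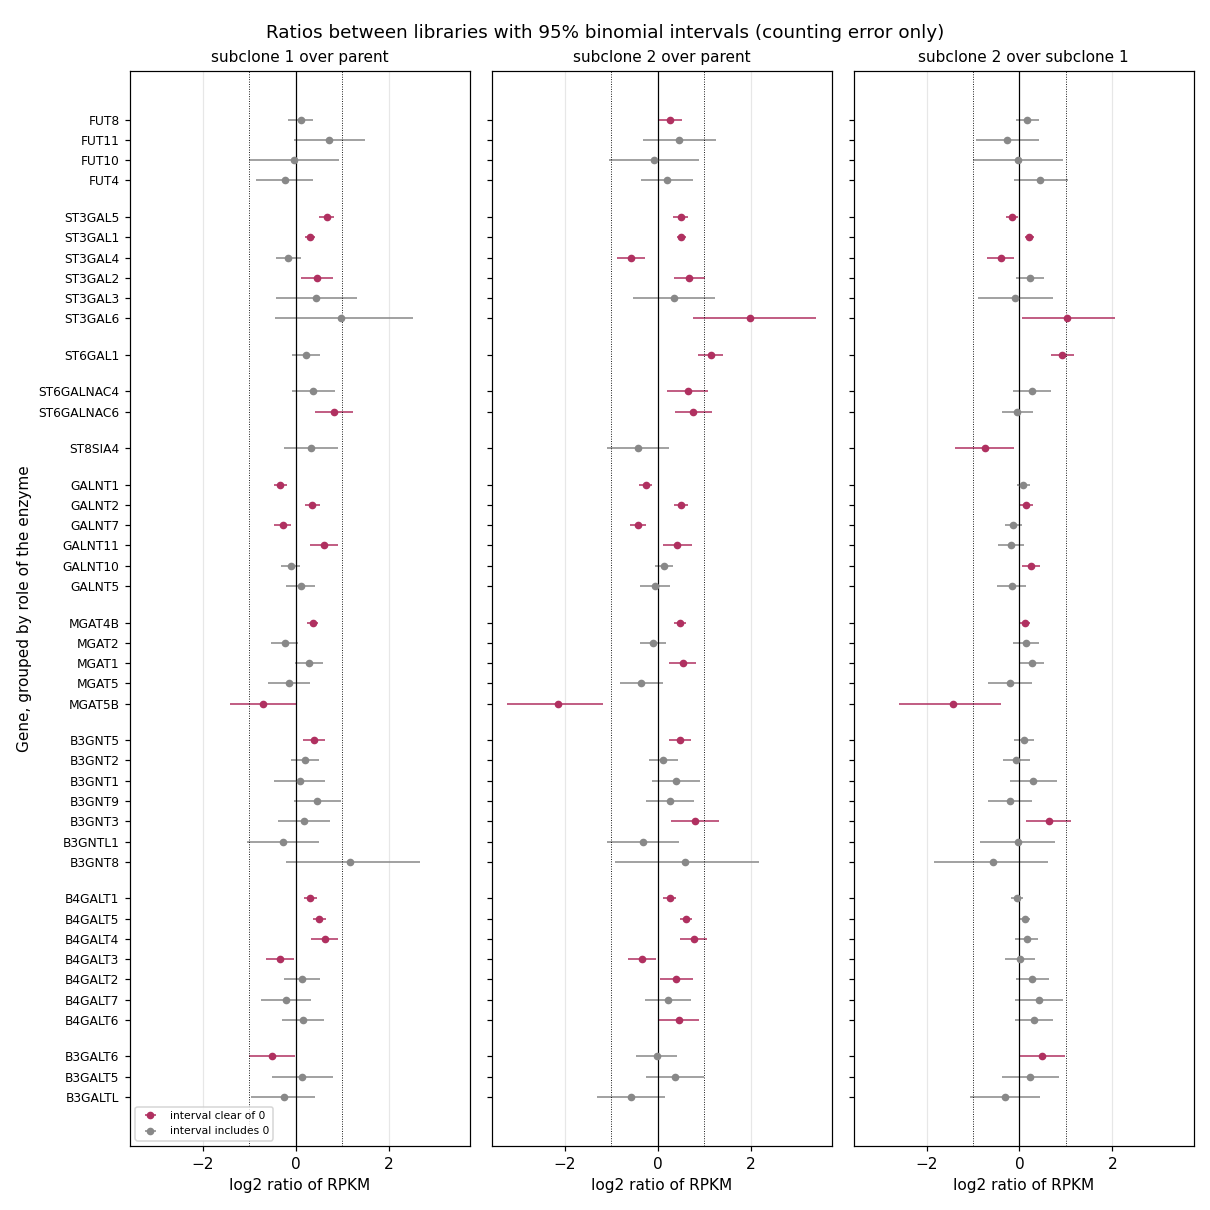
log2 ratio of RPKM, without pseudocount, for the 42 members in each comparison, with 95% binomial intervals on reads, coloured where clear of 0 and with dotted lines at 2-fold. In subclone 2 over the parent, ST6GAL1 (2.20-fold) and ST3GAL6 (3.94-fold) lie past the upper line and MGAT5B (0.227-fold) past the lower, and ST3GAL6 also touches the upper line over subclone 1 (2.02-fold).

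Other genes of these pathways were taken as a list of 57, of which 55 were listed in a library and 49 passed the filter. Past 2-fold in subclone 1 over the parent were 2 upward and 2 downward (all genes: 4.9% and 1.82%). In subclone 2 over the parent these were 2 and 1 (all genes: 5.33% and 2.16%), and over subclone 1 they were 0 and 2 (all genes: 1.42% and 1.39%). Their median log2 ratios were 0.11, 0.12 and 0.05 in the same order, where all genes had 0.0043, 0.037 and 0.034.
Among the 6 genes of GDP-fucose supply, the fucose kinase FUK stood at 1.02 RPKM from 18 reads (parent), 1.33 RPKM from 24 reads (subclone 1) and 2.16 RPKM from 40 reads (subclone 2), with 2.11 (1.18 to 3.91) in subclone 2 over the parent. The 5 genes that make and carry CMP-sialic acid, the donor of the sialyltransferases, had median log2 ratios of -0.12 and 0.05 over the parent and 0.39 between the subclones, where 3 of them had an interval above 1 (all genes: 11.6%). Those 3 were GNE, NANS and CMAS, named after their values were seen. Their 217 to 739 reads in the subclones make such an interval easier to reach. Over the parent, CMAS was lower in subclone 1 at 0.793 (0.690 to 0.910) and not separable from 1 in subclone 2 at 1.04 (0.912 to 1.18). Of the 5 genes, only GNE had an interval above 1 in subclone 2 over the parent, at 1.33 (1.19 to 1.49).
Sialidases remove these caps. NEU4 stood at 1.31 RPKM from 15 reads (parent), 5.27 RPKM from 62 reads (subclone 1) and 1.08 RPKM from 13 reads (subclone 2), with 4.02 (2.26 to 7.62) in subclone 1 over the parent and 0.205 (0.103 to 0.376) in subclone 2 over subclone 1. NEU3, which acts on gangliosides, stood at 3.08 (parent), 1.42 (subclone 1) and 2.23 RPKM (subclone 2), with 0.461 (0.248 to 0.828) in subclone 1 over the parent.
Among carriers of selectin ligands, SELPLG (P-selectin ligand) stood at 1.18 RPKM from 14 reads (parent), 3.29 RPKM from 40 reads (subclone 1) and 2.81 RPKM from 35 reads (subclone 2), with 2.78 (1.48 to 5.54) and 2.37 (1.25 to 4.78) over the parent. PODXL, a sialomucin, stood at 4.90 (parent), 8.56 (subclone 1) and 4.16 RPKM (subclone 2), and its ratio in subclone 2 to subclone 1 was 0.486 (0.386 to 0.608).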

How the data were processed

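Trizol RNA of cultured cells went into TruSeq libraries. The authors deposited RPKM by Entrez number and symbol, on build hg19 per the submitters' processing notes. Aligner, counting tool, annotation and use of strand are not given in the sources used here. Genes missing from a library were set to 0.

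Ratios were taken as log2 of (RPKM + 0.1), with a filter of mean RPKM of at least 1. Library totals (4488825, 4609696, 4725150 reads for parent, subclone 1 and subclone 2) and whole reads were solved from the steps of RPKM values, for 11128 of 11370 genes past the filter. Among multiples of a candidate total, those were kept whose implied gene lengths most often matched GENCODE 29. This match is thus the rule of choice and not an independent check. Of 2000 genes, 79.8% came within 10% of a transcript, but 58.4% also did with totals doubled (16.2% with totals halved), so that the absolute totals, and with them the widths of the intervals, are less certain than the ratios. The step was tested on simulated data whose gene lengths were drawn from GENCODE 29 transcripts. Real lengths matched these only in part, so that the test cannot show recovery in the real libraries. Reads sharing a divisor may be understated, which widens intervals. For a count of 0 a limit of 3 reads was also used, which lies below the upper end of the Poisson interval.

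The members and lists were chosen with earlier results of these data known. Named members were those past 2-fold, the 2 most abundant of each class, members missing from a library but at 0.5 RPKM or more elsewhere (none), and preset genes of selectin ligands, branching and O-glycans. Pathway genes were named where past 2-fold, except 1 that is counted but not reported here. GALNTL4, GALNT10 and B3GALTL were added after values were seen. The RefSeq promoter table held 54 members. Alternatives were pseudocounts of 0.01 and 1, 5 other scalings, filters of none, 0.5 and 5 RPKM, and 1.5-fold. Tools were Python 3.11.15 with numpy 2.4.6, pandas 2.3.3, scipy 1.17.1 and matplotlib 3.10.9.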

Additional observations from a re-analysis of the deposited data

Results flagged for a closer look

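ST8SIA4 and GALNT10 lay on opposite sides of the parent in the subclones, and the counting interval between the subclones was clear of 1. With 1 library for each line this difference was not tested. Against the parent, ST8SIA4 had a log2 ratio of 0.30 (subclone 1) and -0.40 (subclone 2). GALNT10, a polypeptide GalNAc transferase, had -0.12 and 0.13. Each of these ratios had an interval that included no change.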

How the results depend on the processing

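The counts past 2-fold are small, and single members move them. They are given in the order subclone 1 over parent, subclone 2 over parent, subclone 2 over subclone 1, and as reported they were 1, 2 and 0 upward against 0, 1 and 1 downward. They became 4, 5 and 4 upward against 6, 8 and 5 downward with no filter, 0, 1 and 0 upward against 0, 0 and 0 downward with a mean of at least 5 RPKM, and 7, 8 and 3 upward against 1, 1 and 2 downward at 1.5-fold, which 11.6%, 12.7% and 4.75% of all genes passed upward and 7.46%, 7.3% and 4.11% downward. A filter of 0.5 RPKM, chosen after seeing the data, gave 1, 2 and 2 upward against 3, 2 and 1 downward. With a pseudocount of 1 they were 0, 2 and 0 upward against 0, 1 and 0 downward, and with 0.01 they were 1, 2 and 1 upward against 0, 1 and 1 downward. Division by ACTB gave 0, 2 and 2 upward against 0, 1 and 1 downward, and by GAPDH 1, 2 and 2 upward against 0, 1 and 1 downward. The median log2 ratio was 0.045 for subclone 1 over the parent with ACTB and 0.21 for subclone 2 over the parent with no filter. Between the subclones it was 0.23 with ACTB, 0.22 with GAPDH and -0.016 with no filter, a change of sign. ACTB moved the median of all genes to -0.13 (subclone 1 over parent) and 0.16 (between the subclones), and GAPDH moved the latter to 0.15. Of the counts and medians under the alternatives, 64 were counted as the same, 28 as moved and 1 as changed in sign. A count moved if it changed by more than 1.5-fold or to or from 0, and a median if it shifted by 0.1 or more. Of the values of named members, 728 were counted as the same and 7 as moved. All of the 7 came with ACTB or GAPDH and without a change of sign. A member's value counted as moved if its shift exceeded the distance from the middle to an end of its log2 counting interval. Ratios with 0 reads in a library have no finite interval, so they could not count as moved and add to the 728. Members with few reads have wide intervals, so they could hardly count as moved either. No paired analysis was possible because each line has 1 library, and no library could be left out. Depth limits sparse members most: 7 reads of ST3GAL6 in the parent leave its ratio in subclone 2 between 1.69 and 10.6.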
